A study of Mus musculus with 6 samples.

Results

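Cells that carry RNA of innate lymphoid cells (ILCs) or natural killer (NK) cells were picked out of cultures of early T cell progenitors by their marker genes. A cell was a member if it held a transcript count (UMI) of at least 2 different genes among 14 markers, Rora, Id2, Il2rb, Icos, Il18r1, Il18rap, Klrd1, Klrk1, Ncr1, Xcl1, Gzmb, Ikzf3, Tnfrsf9 and Tox2, and no UMI of 6 genes of stromal or myeloid cells, Col1a1, Col1a2, Col3a1, Sparc, Lyz2 and Cst3. The members were thus chosen by measured values of these 20 genes, whose levels are given as a description only. The rule took 1316 of 60671 cells, 2.17% (95% Clopper-Pearson interval 2.05 to 2.29%). Intervals of shares and of UMI counts cover counting error only.

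The study asked what a delay in switching on Bcl11b, a transcription factor that holds progenitors to the T cell fate, does to the choice between T cells and ILCs. RNA was read by sci-RNA-seq3, a method that marks each cell by successive rounds of barcodes in plates; the labels name nuclear RNA but the methods describe fixed cells, and the units are called cells here. The C57BL/6 mice were wild type (WT) or lacked the timing enhancer of Bcl11b on both copies (ΔTE), and in both genotypes Bcl11b carried a fluorescent reporter. Young adult mice of both sexes gave c-Kit-enriched bone marrow progenitors, which were pooled within a genotype and grown with cytokines on OP9-DL1 stroma, a feeder line that shows the Notch ligand DLL1. From these cultures DN1 cells (CD44 without CD25), DN2a cells (CD44 and CD25, reporter off) and DN2b cells (CD44 and CD25, reporter on) were sorted and cultured on this stroma for 4 more days. For cultures that raise NK cells and ILCs, this experiment among them, the methods name IL-2, IL-7, IL-15 and stem cell factor. The 6 groups are WT and ΔTE cells from a DN1, DN2a or DN2b start, with 1 library each. Differences between genotypes or starts have no replicate check, and no test between them was made.

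ILCs and NK cells are lymphocytes without a rearranged antigen receptor, and they share with T cells a lymphoid progenitor and a need for factors such as Gata3, Tcf7 and Tox. Id2, which blocks E proteins, and the zinc finger factor Zbtb16 mark the precursors of ILCs; Gata3 and Rora then act in type 2 ILCs (ILC2), and receptors such as Klrd1, Klrk1 and Ncr1, with granule proteins such as Gzmb, mark NK cells and type 1 ILCs. Bcl11b holds this innate program down in cells committed to the T lineage, although ILC2 also express it.

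Cells were kept if they held 200 genes or more, no more than 2000 UMIs, and a mitochondrial share of UMIs of 30% or less. This left 10925, 19489 and 4968 WT cells and 10294, 11594 and 3401 ΔTE cells from the DN1, DN2a and DN2b starts. Their median depth was 462, 386 and 455 UMIs per cell in WT and 485, 452 and 426 in ΔTE. The WT DN2a library stood apart, with a median mitochondrial share of 13.3% against 20.9 to 23.9% in the other 5, and with 518 cells over the mitochondrial limit against 3440 to 5949. No cell barcode was shared between libraries. Most shares, comparisons of cell sets and genotype ratios that rest on WT DN2a are therefore also given without it or with another mitochondrial limit.

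Members were most frequent among ΔTE cells from a DN2b start and least frequent among WT cells from a DN1 start. They made up 0.641% of WT cells from a DN1 start (70 cells, interval 0.50 to 0.809%), 0.924% from a DN2a start (180 cells, 0.794 to 1.07%) and 3.38% from a DN2b start (168 cells, 2.90 to 3.92%). Of ΔTE cells they made up 1.12% from a DN1 start (115 cells, 0.923 to 1.34%), 3.36% from a DN2a start (390 cells, 3.04 to 3.71%) and 11.6% from a DN2b start (393 cells, 10.5 to 12.7%). In every start the ΔTE interval lay above the WT interval, and in both genotypes the share rose in the order DN1, DN2a, DN2b. The ratio of ΔTE to WT was 1.74-fold from the DN1 start (95% interval 1.28 to 2.38), 3.64-fold from the DN2a start (3.04 to 4.37) and 3.42-fold from the DN2b start (2.85 to 4.12). The share among ΔTE cells from a DN2a start was close to that among WT cells from a DN2b start.

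**Figure D1:**
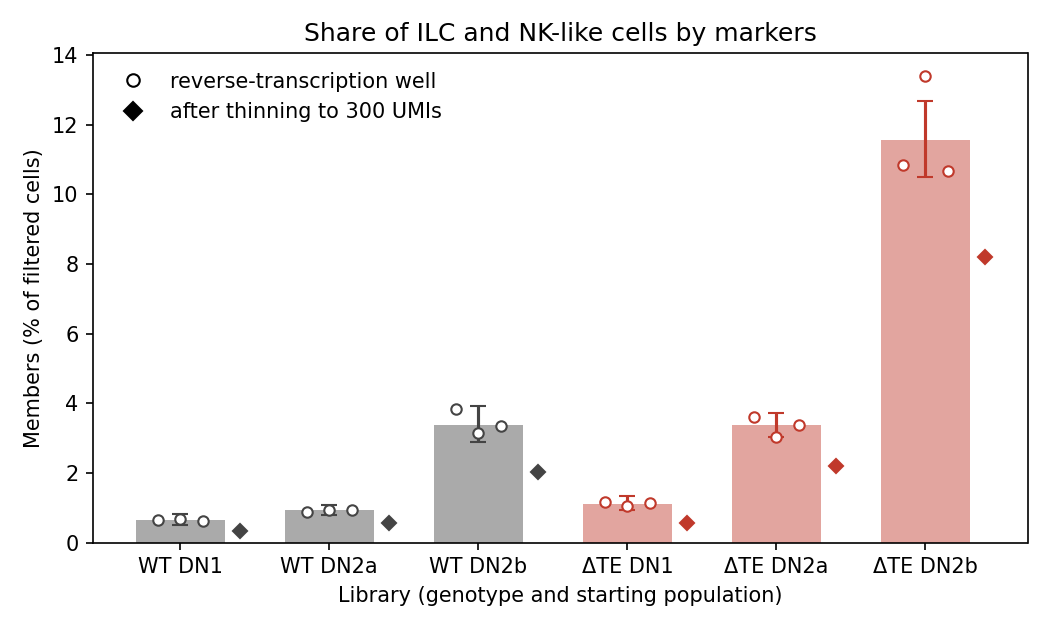
Share of filtered cells that met the marker rule, in percent, for each library. Bars with error bars are the whole library with its 95% Clopper-Pearson interval. Open circles are its 3 wells by barcode name, read as reverse-transcription wells. Diamonds are the share after each cell was thinned to 300 UMIs. The bar of ΔTE cells from a DN2b start reaches 11.6%, and that of WT DN2b, the next highest, 3.38%.

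Between starts of 1 genotype, the step from DN2a to DN2b was 3.66-fold in WT (2.95 to 4.54) and 3.44-fold in ΔTE (2.98 to 3.96). The step from DN1 to DN2a was 1.44-fold in WT (1.09 to 1.93) and 3.01-fold in ΔTE (2.44 to 3.74). With these settings the step from DN2a to DN2b did not differ between genotypes beyond counting error, and that from DN1 to DN2a was larger in ΔTE. Neither statement held with at most 20% mitochondrial UMIs. The step from DN2a to DN2b was then 5.35-fold (4.06 to 7.02) in WT and 2.91-fold (2.30 to 3.68) in ΔTE, larger in WT, and the intervals of the step from DN1 to DN2a overlapped, at 2.03-fold (1.26 to 3.47) and 3.55-fold (2.52 to 5.11). Without Gzmb, a setting chosen after seeing the data, the step from DN2a to DN2b was 5.44-fold (4.06 to 7.30) in WT and 3.85-fold (3.26 to 4.55) in ΔTE, with intervals that overlapped. With at least 3 marker genes the WT step from DN2a to DN2b was also the larger by point value, and the intervals of both steps overlapped. The barcodes name 3 wells per library, read here as reverse-transcription wells and treated as technical parts of 1 library. Whether they held separate cultures is not given in the sources used here. They ranged from 3.15 to 3.82% in WT DN2b and from 10.7 to 13.4% in ΔTE DN2b, and no well of a ΔTE library fell to the level of a WT well from the same start.

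A deeper cell shows 2 marker genes more easily, and members were deeper than the other cells without the 6 excluded genes: their median was 504.5 against 420 UMIs. After every cell was thinned to 300 UMIs, the share of members was 0.321, 0.549 and 2.04% in WT and 0.571, 2.19 and 8.20% in ΔTE from the DN1, DN2a and DN2b starts. The ΔTE share stayed above the WT share from the same start, ΔTE DN2a and WT DN2b again lay close together, and the ratios of ΔTE to WT were 1.78, 4.00 and 4.02-fold. Thinning left out 1266, 4723, 555, 1010, 1471 and 462 shallower cells, with the WT libraries first and the starts in the same order. With at most 20% mitochondrial UMIs the ratios were 2.37, 4.13 and 2.25-fold, and with no mitochondrial limit 1.80, 3.19 and 3.15-fold. No doublet caller was used: cells were kept up to 2000 UMIs, and with a limit of 1000 UMIs the ratios were 1.68, 3.64 and 3.63-fold.

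The marker genes did not weigh alike in the rule. Gzmb, a granule protease of cytotoxic cells, had a UMI in 802 members (60.9%), but also in 7.37% of other cells. Among members it was found in 61.4, 68.9 and 61.3% of WT and 71.3, 61.8 and 53.2% of ΔTE members (DN1, DN2a and DN2b start in turn). It fell from the DN1 to the DN2b start in ΔTE, with intervals of 62.1 to 79.4% and 48.1 to 58.2% at the ends, and showed no such order in WT. Of the transcription factors, Rora, a nuclear receptor of ILC2, was in 38.6, 43.9 and 58.3% of WT and 32.2, 36.7 and 39.4% of ΔTE members, highest in WT DN2b. Id2 was in 25.7, 28.9 and 33.9% of WT and 38.3, 35.4 and 41.2% of ΔTE members, a little more often in ΔTE in each start. Ikzf3 (Aiolos) was in 7.22% and Tox2, a relative of Tox, in 12.3% of all members.

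Among receptors, Icos, a costimulatory receptor that ILC2 carry, followed the start: it was in 4.29, 15.0 and 32.7% of WT and 7.83, 14.9 and 28.0% of ΔTE members. It rose from the DN1 to the DN2b start in both genotypes, with little difference between them. Il18rap, an IL-18 receptor chain, ran the other way, in 44.3, 27.2 and 13.7% of WT and 28.7, 20.8 and 12.7% of ΔTE members. Its partner Il18r1 was in 11.4% of all members. Tnfrsf9 (4-1BB), a costimulatory receptor of activated lymphocytes, was in 4.29, 10.0 and 9.52% of WT and 8.70, 21.5 and 27.2% of ΔTE members, more often in ΔTE in every start.

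Besides Gzmb, the NK genes of the rule were each in fewer than 10% of all members. Il2rb, the chain that binds IL-2 and IL-15, was in 0, 2.78 and 5.36% of WT and 8.70, 10.8 and 14.2% of ΔTE members. Klrd1 (CD94) was in 2.86, 3.33 and 3.57% of WT and 7.83, 10.0 and 8.40% of ΔTE members and Klrk1 (NKG2D) in 5.71, 3.89 and 4.17% of WT and 5.22, 9.23 and 9.41% of ΔTE members. Among members from the DN2a and DN2b starts all of these, with Ncr1 (NKp46; 4.56% of all members) and the chemokine Xcl1 (3.95%), were more frequent in ΔTE than in WT. The absence of Il2rb and Xcl1 from the 70 WT DN1 members allows a share of up to 5.13% at the upper Clopper-Pearson limit.

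**Figure D2:**
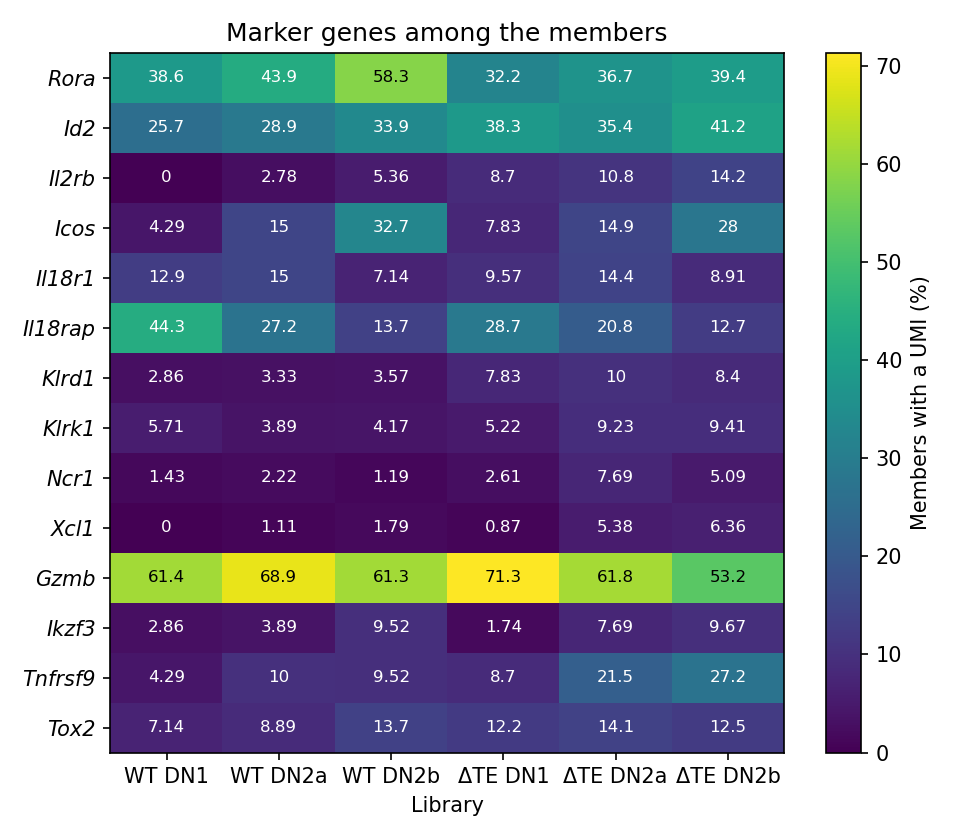
Percentage of members with a UMI of each of the 14 marker genes, by library (columns). The color and the printed number give the percentage of members, and the rule itself sets these values above those of other cells. Gzmb is in 53.2 to 71.3% of the members of each library.

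Stromal cells should lack most of these genes and give the level of free RNA. Among 2439 cells with at least 3 UMIs of Col1a1, Col1a2, Col3a1 and Sparc (median 607 UMIs, against 504.5 in members), Il2rb, Klrk1 and Xcl1 had no UMI, which allows a share of up to 0.151%. Gzmb was in 2.71% of them, under the 7.37% of the shallower other cells, so that the share in other cells exceeded this level. Rora was in 14% of stromal cells and Id2 in 4.39%, against 1.05 and 1.19% of other cells. Both were thus more frequent in the stromal cells than in the other cells, and the part of stromal RNA in the members' Rora and Id2 was not tested. The condition on the 6 excluded genes removed 241 cells that met the marker condition.

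Most members lay just inside the threshold. Exactly 2 marker genes were found in 825 members (62.7%), 3 in 289 and 4 or more in 202, while 6346 cells lay just outside, with exactly 1. Members with exactly 2 held Gzmb in 55.4% of cases, and the commonest pairs were Rora with Gzmb (114 cells), Il18rap with Gzmb (100) and Id2 with Gzmb (97). Without Gzmb among the markers, 859 members (65.3%) remained. Their shares were 0.284, 0.426 and 2.31% in WT and 0.534, 2.33 and 8.97% in ΔTE, a choice made after seeing the data. At 3 or more markers the shares were 0.0549, 0.195 and 1.27% in WT and 0.262, 1.47 and 5.50% in ΔTE, so that the ΔTE share was the higher in each start under both changes.

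Genes that the rule did not use were compared between the members and the 49468 other cells without the 6 excluded genes. UMIs were summed per library, with the library as a block. The 6 libraries are different conditions from marrow pooled within a genotype. The p-values of this and the later fits therefore do not measure variation between animals or between separate pools. Of 8152 genes tested, 456 (5.59%) were higher and 348 (4.27%) lower in members, at an adjusted p under 0.05. Both counts depended on the fit, that of lower genes the more: DESeq2 called 331 higher and 127 lower, and edgeR without the library block 335 and 175. Of 10 tested among 12 listed genes of ILC precursors or shared by ILCs, 9 rose and none fell. The list's median log2 fold change was 0.83 against -0.02 over all genes tested. The 9 were Zbtb16, Tox, Tcf7, Il7r, Pdcd1, Itga4, Itgb7, Kit and Maf, and Ets1 was not called. The lists overlap: Kit is also counted below with early progenitor genes, and Il7r with cytokine signalling.

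Zbtb16 (chromosome 9, 48654297 to 48836222 on GRCm38) stood at 698, 860.2 and 784 CPM in WT and 727, 1268 and 1139 CPM in ΔTE members, against 280.5, 261 and 181 CPM in WT and 415, 487 and 309.7 CPM in ΔTE other cells from the DN1, DN2a and DN2b starts. Every library's members exceeded every library's other cells (log2 fold change 1.56 ± 0.11, adjusted p = 1.50e-26). Maf (chromosome 8, 115682942 to 115707794), a bZIP factor of several lymphocyte types, stood at 205, 329 and 682 CPM in WT and 127, 361 and 650.2 CPM in ΔTE members and 14.7, 22.8 and 62.1 CPM in WT and 14.4, 39.1 and 101 CPM in ΔTE other cells. It was lowest in DN1 members, and higher in members in all 6 libraries (log2 fold change 3.26 ± 0.15, adjusted p = 1.37e-40). Tox, an HMG-box factor that ILC and T cell development need, was the most abundant gene of the list at 1253, 2294 and 2615 CPM in WT and 1674, 2535 and 2639 CPM in ΔTE members (log2 fold change 1.43 ± 0.09, adjusted p = 1.64e-28). Pdcd1 (PD-1), which ILC precursors carry, averaged 228 against 48.2 CPM (log2 fold change 2.26 ± 0.17, adjusted p = 3.95e-23), and the homing integrin chain Itga4 1920.3 against 991 CPM (log2 fold change 0.96).

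Of the 13 listed ILC2 genes 4 could be tested, and 3 rose, with a median log2 fold change of 1.82. Gata3 (chromosome 2, 9857078 to 9890034) stood at 226, 531 and 812 CPM in WT and 462, 687 and 764 CPM in ΔTE members, against 88.7, 166 and 219 CPM in WT and 146, 212 and 228 CPM in ΔTE other cells. It was higher in members than in other cells of the same library in all 6, and WT DN1 members, the lowest, lay just under the highest value of other cells (log2 fold change 1.73 ± 0.11, adjusted p = 4.23e-29). Cysltr1, a leukotriene receptor of ILC2, averaged 226 against 61.3 CPM (log2 fold change 1.92 ± 0.16, adjusted p = 4.78e-20) and the IL-9 receptor Il9r 37.2 against 8.48 CPM (log2 fold change 2.17 ± 0.41, adjusted p = 1.97e-05). Il17rb, a chain of the IL-25 receptor, averaged 70.9 against 71.3 CPM and was not called. The ILC2 effector gene Areg had no UMI in members.

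Of 29 listed genes of NK cells and ILC1, 12 could be tested: 8 rose, 1 fell and 3 were not called, with a median log2 fold change of 1.58. Cd7 (chromosome 11, 121036747 to 121039418), a surface protein of T and NK cells, stood at 308, 159 and 271 CPM in WT and 196, 607 and 826 CPM in ΔTE members, with other cells at 43.7 to 116 CPM (log2 fold change 2.48 ± 0.15, adjusted p = 8.99e-31). The ΔTE DN2a and DN2b members were far above the other 4 groups of members. Cd160, a receptor of NK cells and ILC1, stood at 226, 255 and 346 CPM in WT and 254, 365 and 508 CPM in ΔTE members, and other cells at 88.3 to 147 CPM (log2 fold change 1.65 ± 0.13, adjusted p = 4.71e-21). The signalling adaptors Tyrobp and Fcer1g averaged 238 against 89.4 CPM (log2 fold change 1.60) and 273 against 159 CPM (log2 fold change 0.81). Cd226, an activating receptor, averaged 53.1 against 10.9 CPM (log2 fold change 2.40), and Serpinb9, an inhibitor of granzyme B, 48.5 against 12.4 CPM (log2 fold change 2.15).

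Gzma, the granzyme most abundant in these cultures, is not a gene of the rule. It stood at 431, 977 and 355 CPM in WT and 669.6, 1188.5 and 508 CPM in ΔTE members and 597, 931 and 636 CPM in WT and 927, 1443 and 1174 CPM in ΔTE other cells, lower in members in 5 of 6 libraries (log2 fold change -0.51 ± 0.11, adjusted p = 1.46e-04). The granule membrane protein Nkg7 averaged 343 against 335 CPM and was not called. The NK factors Eomes and Tbx21 and the pore protein Prf1 were too low to be tested. Of 10 genes of type 3 ILCs, 3 were tested (Ltb, Tnfsf11 and Nrp1): 0 were called by edgeR or DESeq2, and 1 had an unadjusted p under 0.05. Il23r and Il17a had no UMI in members.

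Of 9 tested genes of the T lineage 2 rose, 4 fell and 3 (Cd3d, Lck and Cd5) were not called; DESeq2 called 4 of the 9. Bcl11b (chromosome 12, 107910403 to 108003602) stood at 226, 393 and 523 CPM in WT and 127, 149.7 and 233 CPM in ΔTE members and 245, 601 and 921 CPM in WT and 92.3, 280.1 and 604 CPM in ΔTE other cells. It was lower in members in 5 of 6 libraries, and higher in ΔTE DN1, where both values were low (log2 fold change -0.79 ± 0.13, adjusted p = 7.97e-07). The CD3 chain Cd3g averaged 149.6 against 277 CPM (log2 fold change -0.83), the adaptor Lat 74.1 against 129.8 CPM (log2 fold change -0.75) and Dntt, which adds bases to receptor gene joints, 17.6 against 49.0 CPM (log2 fold change -1.46). Themis, a regulator of T cell receptor signals, went up, at 199 against 60.3 CPM (log2 fold change 1.67), as did the signalling chain Cd247 at 275 against 182 CPM (log2 fold change 0.61). Cd163l1, a scavenger receptor of gamma-delta T cells, averaged 286 against 99.5 CPM (log2 fold change 1.63), and Sox13 and Blk of the same list were not called. Receptor constant genes were not analysed here.

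Of 9 tested genes of early progenitors 3 fell, 1 rose and 5 (Cd34, Spi1, Meis1, Hhex and Mef2c) were not called. Lyl1 (42.8 against 111 CPM, log2 fold change -1.51), Erg (113 against 288 CPM, log2 fold change -1.46) and Bcl11a (102 against 148 CPM, log2 fold change -0.83), all transcription factors of stem and progenitor cells, fell. The stem cell factor receptor Kit rose (302.5 against 223 CPM, log2 fold change 0.55). Notch1, the receptor for DLL1, fell in all 6 libraries (134 against 272 CPM, log2 fold change -1.12), while 4 other tested genes of the Notch list, Notch2, Hes1, Dtx1 and Nrarp, were not called. Of 14 tested lineage transcription factors 4 rose (Runx2, Ikzf1, Ikzf2 and Lef1), 2 fell and 8 were not called, while DESeq2 called 5 of the 14. Runx1 averaged 1007 against 1426 CPM (log2 fold change -0.58), and Tcf4, an E protein gene, 216 against 299.9 CPM (log2 fold change -0.50). Ikzf2 (Helios) averaged 846 against 381 CPM (log2 fold change 1.17), and the log2 fold change of Lef1 was 1.30, that of Runx2 0.44 and that of Ikzf1 0.47.

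Of 13 tested genes of common gamma chain cytokine signalling, 3 rose and 4 fell, while DESeq2 called 5 of the 13. Il2rg, the common chain itself, averaged 322 against 216 CPM (log2 fold change 0.60), Il7r 194 against 127 CPM (log2 fold change 0.57), and Socs1, a feedback inhibitor, 115 against 57.9 CPM (log2 fold change 0.98). Il2ra (CD25), on which the DN2 cells were sorted, was lower in members at 1866 against 2691 CPM (log2 fold change -0.56), and the transducers Stat5b and Stat5a averaged 141 against 245 CPM and 81.0 against 118 CPM (log2 fold change -0.78 and -0.67). The summed mitosis list was higher in members, at 3764 CPM (3629 to 3903) against 3062 CPM (3040.4 to 3084) in other cells, and so in each of the 6 libraries. By single gene, 0 of 12 mitosis genes were called by edgeR or DESeq2, 5 had an unadjusted p under 0.05 in edgeR, and the list had a median log2 fold change of 0.25, and of 12 genes of DNA replication Mcm6 fell (log2 fold change -0.40) and 11 were not called. DESeq2 called 0 of these 12 replication genes.

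The genes furthest above other cells, among called genes with at least 50 CPM, lay outside these lists except for Maf. Hmga2, a chromatin protein of fetal and stem cells, stood at 226, 138 and 504 CPM in WT and 196, 436 and 636 CPM in ΔTE members and 12.6 to 107 CPM in other cells (log2 fold change 3.22 ± 0.16, adjusted p = 4.22e-38). Lgals3 (galectin 3) averaged 151 against 9.32 CPM (log2 fold change 4.08), the nuclear lamina gene Lmna 66.5 against 6.16 CPM (log2 fold change 3.44) and Nt5e (CD73), which makes adenosine, 129.9 against 14.9 CPM (log2 fold change 3.14). All 4 were higher in members in 6 of 6 libraries. Togaram2, Tnni1, St3gal6, Tent5a, Olfm3, Fam129a and Ahnak were the others, with log2 fold changes of 2.92 to 4.08. Furthest below were Frmd6 (15.5 against 84.0 CPM, log2 fold change -2.42), the mucin gene Muc13 (74.4 against 168 CPM, log2 fold change -1.66), and Dgkg, Fstl4, Ctla4, Tspan9, Nckap5, Dgke, Gfra1 and Arhgap23, which with Lyl1 and Erg made up the 12 lowest, at -1.64 to -1.44.

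With only cells of 400 to 800 UMIs in both sets, 278 genes were higher and 222 lower of 6346 tested, and 261 and 186 of them were among those called in all cells. Without WT DN2a the counts were 424 and 300, and without ΔTE DN2a, the library that moved them most, 309 and 190.

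The same genes were graded by the number of marker genes in a cell. Over all libraries Gata3 stood at 153 CPM in cells with no marker gene, 228 with 1, 462 with 2, 858 with 3 and 1119.7 with 4 or more (interval 942 to 1320.5). Bcl11b went the other way, at 414, 316, 301, 221 and 127 CPM (72.6 to 206). Zbtb16 stood at 311, 467, 1001, 1005 and 1112 CPM. Libraries take unequal shares of these classes, so the order was also read within them. In ΔTE DN2b cells Gata3 stood at 185, 473, 540.3, 835 and 1158 CPM, Zbtb16 at 238, 722, 1337, 889 and 998 CPM and Bcl11b at 635, 426, 322, 127 and 159.7 CPM. Gata3 was thus higher with each class in this library, while Zbtb16 was highest at 2 marker genes (1125 to 1576, against 658 to 1176 at 3) and Bcl11b did not fall further from 3 to 4 or more. The order of Bcl11b did not hold in every library: in WT DN1 it was 252, 201 and 253 CPM with 0, 1 and 2 marker genes. Cells with 1 marker gene, just outside the rule, lay between cells with none and the members for Gata3 and Zbtb16 in all 6 libraries, with no test made.

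**Figure D3:**
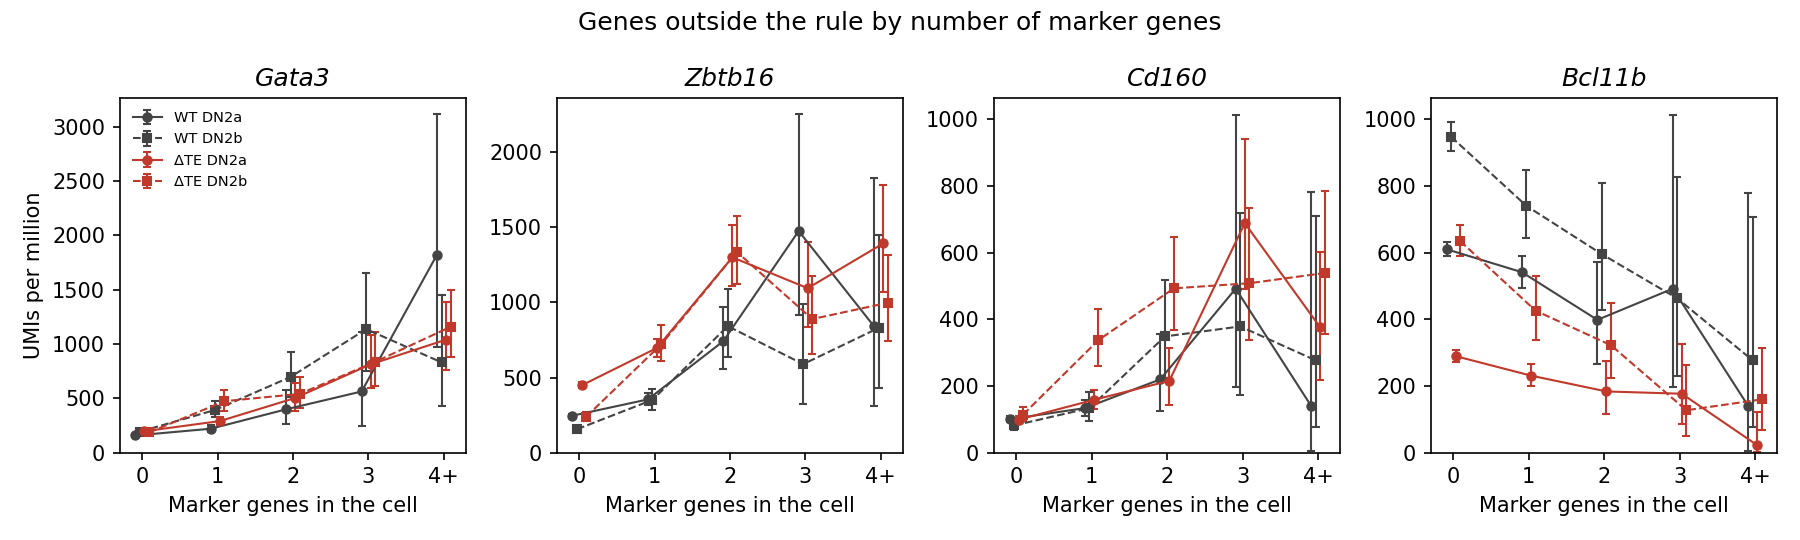
CPM (UMIs scaled to a common total without rule genes) of 4 genes that the rule did not use, in cells without the excluded genes, by how many of the 14 marker genes the cell holds. Points are sums over the cells of 1 library with 95% Poisson intervals; only the DN2a and DN2b starts are drawn, WT in gray and ΔTE in red. Gata3 is higher in cells with 2 or 3 marker genes than in cells with none in all 4 libraries, and Bcl11b is lower.

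Members were next set against cells of the T lineage. Cells with a UMI of at least 2 of Cd3e, Cd3d, Cd3g and Cd247 and none of the 6 excluded genes numbered 912, and 23 members (1.75%) were among them. These 23 were left out of both sets. The comparison kept all 6 libraries, although ΔTE DN1 held 19 CD3 cells. Of 2002 genes tested, 175 (8.74%) were higher and 163 (8.14%) lower in members. Both counts depended on the fit, and DESeq2 called fewer genes in each direction. Of 9 tested genes of the ILC precursor list, 7 were higher and none lower. The list's median log2 fold change was 1.32 against 0.00 over all genes. This count uses the same members as the first comparison and is not independent of it. DESeq2 called 6 of these 9.

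Zbtb16 averaged 929 against 134 CPM (log2 fold change 3.06 ± 0.19, adjusted p = 1.88e-16), with CD3 cells at 105, 85.2 and 76.4 CPM in WT and 209, 223 and 106 CPM in ΔTE. The members' value was the higher in every library, with intervals apart in all but ΔTE DN1, where 3 UMIs in CD3 cells gave 43.0 to 609 CPM against 559 to 931 CPM in members. Bcl11b stood at 559, 993 and 1375 CPM in WT and 488, 647 and 824 CPM in ΔTE CD3 cells and averaged 269.5 against 814 CPM in members and CD3 cells (log2 fold change -1.64 ± 0.16, adjusted p = 7.19e-11), lower in members in 6 of 6 libraries. Gata3, which T cell progenitors also need, averaged 591 against 173 CPM (log2 fold change 2.06 ± 0.20, adjusted p = 1.06e-10), and Cd160 325 against 83.5 CPM (log2 fold change 2.13). Fcer1g averaged 277 against 51.9 CPM (log2 fold change 2.05), and Gzma was lower in members, at 678 against 1088.5 CPM (log2 fold change -0.62). Il7r and Ets1 were not called.

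The largest fold was that of Hmga2, with 323 UMIs in members and 5 in CD3 cells (log2 fold change 5.26 ± 0.37, adjusted p = 2.96e-15). The chemokine receptor Ccr2 averaged 617 against 75.4 CPM (log2 fold change 3.37), the calcium-binding protein S100a4 506 against 45.5 CPM (log2 fold change 3.48), the phosphoinositide phosphatase Inpp4b 1254 against 241 CPM (log2 fold change 2.83) and the integrin chain Itgae (CD103) 345 against 43.6 CPM (log2 fold change 2.65). Each of the 4 was higher in members in 6 of 6 libraries. Myo1e, Myo1f, Ubash3b, Fam129a, Maf and Cd7 made up the rest of the 12 highest, at 2.51 to 3.99. Lowest in members were the tetraspanin Tspan2 (68.3 against 313 CPM, log2 fold change -2.22), Pcmtd1 (log2 fold change -2.20) and Arpp21, an RNA-binding protein of thymocytes (436 against 1634 CPM, log2 fold change -1.95), followed by Entpd5, Bcl11b, Plekha7, Muc13, Notch1, Ralgps2, the DNA methyltransferase Dnmt3b, Itga6 and Erg. Il2ra and Runx1, lower in members than in other cells, were lower than in CD3 cells too, at 1844 against 3307 CPM (log2 fold change -0.85) and 1016 against 1982 CPM (log2 fold change -0.99).

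Without WT DN2a, 162 genes were higher and 136 lower, and without ΔTE DN2a 114 and 123. Other cells and CD3 cells overlap, since the other cells include cells with CD3 genes, so both comparisons share cells as well as members.

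**Figure D4:**
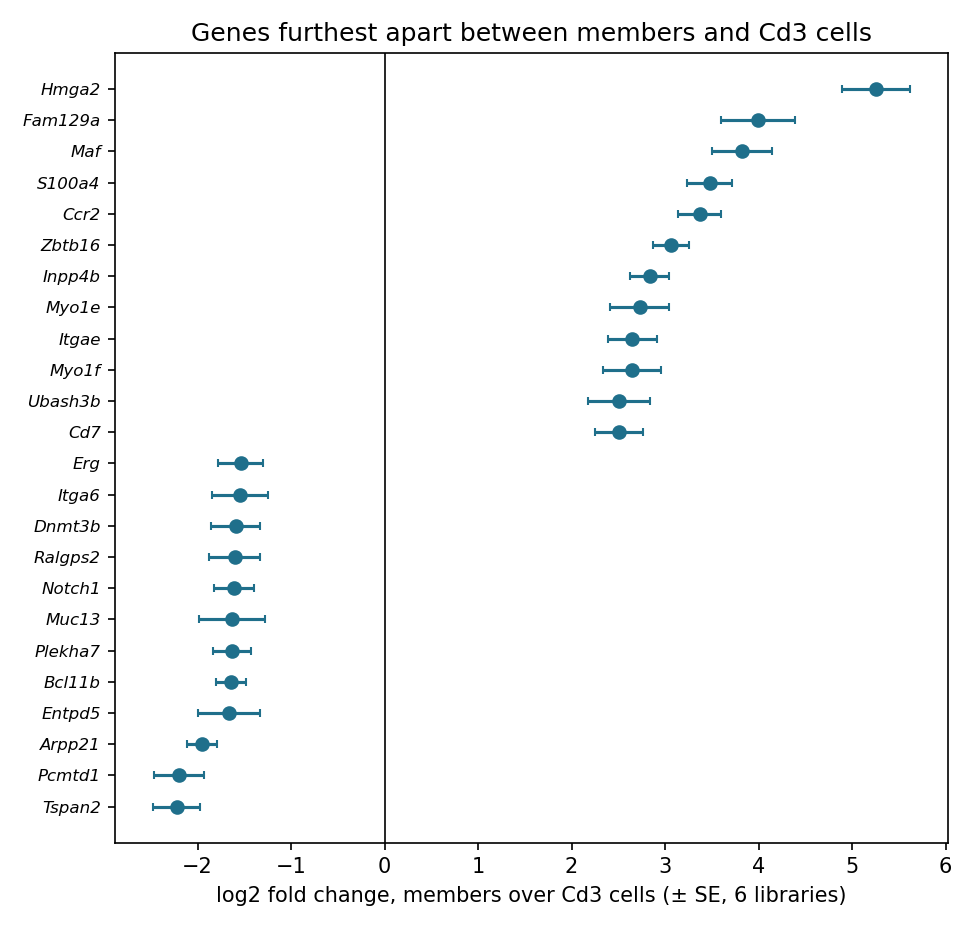
Log2 fold change of members over CD3 cells, with its standard error over 6 libraries, for the 12 highest and 12 lowest called genes with at least 50 CPM in the higher set. Genes of the rule and the CD3 genes that chose the other set are left out. Hmga2 lies furthest right at 5.26 and Tspan2 furthest left at -2.22.

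The rule mixes markers of NK cells with markers of ILC2 and of wider use, so members were split by them. A UMI of at least 1 of Il2rb, Klrd1, Klrk1, Ncr1, Xcl1 and Gzmb was found in 992 members (75.4%). Of 922 genes tested between them and the rest, 7 (0.759%) were higher and 6 (0.651%) lower. Among the higher were Cd7 (444 against 260.1 CPM, log2 fold change 1.00 ± 0.23, adjusted p = 0.00960), Cotl1, Nrgn, Wwox, Eif5a and Tmsb4x. Lower were Sox5 (168 against 361 CPM, log2 fold change -1.11 ± 0.25, adjusted p = 0.00960), Cd163l1, Fam169b, Arpp21, Auts2 and Itga4. Gata3, Zbtb16, Bcl11b, Cd160 and Fcer1g were not called. The split was not stable: DESeq2 called 0 genes, with 30 at an unadjusted p under 0.05 against 92 in edgeR. Without WT DN2b, ΔTE DN2a or ΔTE DN2b edgeR called 0, with 80, 52 and 57 at an unadjusted p under 0.05, and without WT DN2a it called 3 higher and 4 lower.

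Gzmb made up most of that split. A split without it, chosen after seeing the data, parted 325 members with at least 1 of the other 5 genes from 991 without. The fit used the 5 libraries with at least 20 cells on each side, and left out WT DN1 with 6 and 64. It called 13 genes higher and 11 lower of 1529. Cd7 averaged 959 against 266 CPM (log2 fold change 1.70 ± 0.23, adjusted p = 1.26e-06), Cd3g 459 against 119.6 CPM (log2 fold change 1.72 ± 0.32, adjusted p = 4.09e-04) and Tyrobp, the adaptor of several NK receptors, 488 against 158 CPM (log2 fold change 1.66 ± 0.33, adjusted p = 6.64e-04). Higher too were Ifitm1, Emb, Cd52, S100a11, Zfp36l1, Chsy1, Nrgn, Tmsb4x, Ptprc and Bach2. Lower were Angpt1 (128 against 733 CPM, log2 fold change -2.63 ± 0.35, adjusted p = 8.61e-07), Adgrg1, Runx1 (478 against 1104 CPM, log2 fold change -1.48), Rnf220, Pde4d, Etv6, Tmtc2, Arpp21, Fut8, Itga4 and Il2ra. These genes were named after their values were seen.

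Members that carry a given marker differed in the lists the rule did not use. The NK and ILC1 list, summed without rule genes, stood at 5849 CPM in the 95 members with Klrd1, 5549 in the 60 with Ncr1 and 6249.8 in the 52 with Xcl1, against 2470.3 in the 539 with Rora and 3202 in all members. The ILC2 list stood highest in members with Ikzf3 (2185 CPM, interval 1811 to 2612) and Icos (1854, 1641 to 2087), and lowest in members with Xcl1 (497, 272 to 834), against 1103 in all. These values are pooled over libraries, which the markers share unequally: 62.2% of members with Rora, 67.6% with Icos, 85.3% with Klrd1 and 90.4% with Xcl1 were ΔTE. Within ΔTE DN2b, the NK list stood at 5281 CPM (4257 to 6477) in members with Klrd1 and 5755 CPM (4549 to 7182) with Xcl1, against 3545 CPM (3296 to 3809) in all members. The ILC2 list there stood at 1896 CPM (1574 to 2263) with Icos and 590.2 CPM (255 to 1163) with Xcl1, against 1381 CPM (1227 to 1549) in all. Members with Ikzf3 were close to all members in this library, at 1415 CPM (979.7 to 1977); they stood at 2398 CPM (1713 to 3266) against 1061 in ΔTE DN2a and at 3010.0 CPM (1966 to 4410.3) against 1485 in WT DN2b. By point value the ILC2 list exceeded that of all members in all 6 libraries with Ikzf3, and with Icos in all but WT DN1, which had 3 such members. The NK list did so in all 6 with Klrd1 and in the 5 with an Xcl1 member, although WT libraries held 2 to 6 members with Klrd1 and 0 to 3 with Xcl1. Over all libraries, Bcl11b stood at 21.0 CPM in members with Klrd1 (1 UMI, 0.531 to 117) and 340.0 in members with Rora (279 to 410.1). In ΔTE DN2b members it had 0 UMIs with Klrd1, which allows up to 212 CPM, and stood at 259.9 CPM (165 to 390.0) with Rora and 233 CPM (172 to 307) in all. A member can carry several markers, so these sets overlap.

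Within the members, the genotypes were compared in each start by the log2 ratio of ΔTE to WT with its Poisson interval. Bcl11b, the gene whose enhancer was deleted, was lower in ΔTE members from the DN2a start, at -1.39 (-2.11 to -0.68), and from the DN2b start, at -1.17 (-1.75 to -0.59). From the DN1 start the ratio was -0.83 (-2.18 to 0.52), with 11 UMIs in each genotype. In other cells the ratios were -1.41, -1.10 and -0.61 from the DN1, DN2a and DN2b starts, so that Bcl11b was lower in ΔTE in both kinds of cell. Zbtb16 was higher in ΔTE members from the DN2a start, at 0.56 (0.20 to 0.93), and the DN2b start, at 0.54 (0.17 to 0.91), with no difference beyond counting error from the DN1 start, at 0.06 (-0.57 to 0.71). In other cells the Zbtb16 ratios were 0.57, 0.90 and 0.77, so that the difference was not particular to members. Among members with at least 3 marker genes the Zbtb16 ratio from the DN2a start was -0.042. Ratios from the DN2a start rest on the WT DN2a library, which stood apart, and those from the DN2b start do not.

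The NK and ILC1 list, without rule genes, summed to 1993, 2782 and 2185 CPM in WT and 2482, 4072 and 3545 CPM in ΔTE members from the DN1, DN2a and DN2b starts. The ΔTE sum exceeded the WT sum in each start, with log2 ratios of 0.32 (-0.04 to 0.68), 0.55 (0.35 to 0.75) and 0.70 (0.48 to 0.92), the first within counting error, although with TMM scaling it was 0.44 (0.09 to 0.80). Other cells showed a like difference, with ratios of 0.36, 0.40 and 0.73. The ILC2 list summed to 308, 956 and 1485 CPM in WT and 669.7, 1061 and 1381 CPM in ΔTE members. It rose from the DN1 to the DN2b start in both genotypes. Its ratio of ΔTE to WT was 1.12 (0.28 to 2.05) from the DN1, 0.15 (-0.20 to 0.52) from the DN2a and -0.10 (-0.39 to 0.18) from the DN2b start. The ILC precursor list differed by 0.05 (-0.18 to 0.28), 0.11 (-0.01 to 0.24) and 0.02 (-0.10 to 0.13), within counting error in all 3 starts. In other cells the ILC2 ratios were 0.54, 0.27 and 0.17 and the ILC precursor ratios 0.14, 0.21 and 0.12, with all intervals above 0. With TMM scaling, however, the members' ratios from the DN2a start were 0.36 (0.0062 to 0.73) for the ILC2 list and 0.32 (0.20 to 0.45) for the ILC precursor list, and 0.12 (0.0024 to 0.24) for the latter from the DN2b start, all above 0. The ILC precursor ratio from the DN2a start was above 0 as well with totals without mitochondrial genes, at 0.25 (0.12 to 0.37), and among members with at most 20% mitochondrial UMIs, at 0.16 (0.01 to 0.31). Without Gzmb among the markers it turned to -0.026 (-0.19 to 0.14), and the ILC2 ratio from this start to -0.21 (-0.64 to 0.23). The Notch list was lower in ΔTE members, at -1.04 (-1.60 to -0.48) from the DN2a and -0.78 (-1.41 to -0.15) from the DN2b start. Without Gzmb among the markers the list was at -0.81 (-1.63 to 0.04) from the DN2b start. In other cells its ratios were -0.17, -0.27 and -0.16, and whether members and other cells differed in these ratios was not tested. These directions of the NK and Notch lists, of Bcl11b and of Zbtb16 were the same with TMM scaling and with totals without mitochondrial genes in the DN2a and DN2b starts. They held too among members with at most 20% mitochondrial UMIs, a limit put on the genotype ratios after seeing the data. From the DN2a start Bcl11b was then at -2.12 (-3.31 to -1.06), Zbtb16 at 0.48 (0.06 to 0.91), the NK list at 0.75 (0.52 to 0.98) and the Notch list at -1.05 (-1.80 to -0.31). From the DN2b start the NK list was at 0.76 (0.43 to 1.09), and the intervals of Bcl11b, Zbtb16 and the Notch list included 0. The interval of the ILC2 ratio from the DN2a start also included 0 under this limit, at -0.41 to 0.43. The stromal list differed by genotype as well, with 46 UMIs in ΔTE and 5 in WT members from the DN2a start, a ratio of 1.93 (0.61 to 3.62), and 1.08 (-0.24 to 2.66) from the DN2b start. From the DN1 start the point value went the other way, with 8 UMIs in ΔTE and 9 in WT members and an interval of -2.58 to 0.54. With at most 20% mitochondrial UMIs the stromal ratio from the DN2a start was 3.64 (1.68 to 6.75), a larger value on fewer UMIs. Its ratios in other cells from the DN2a and DN2b starts were 0.0088 and 0.08, and the part of stromal RNA in the genotype ratios was not tested.

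Single genes were compared where at least 30 UMIs over both genotypes were held in each of the DN2a and DN2b starts. Of 2057 such genes, 29 (1.41%) were at least 1.5-fold higher and 68 (3.31%) at least 1.5-fold lower in ΔTE members of both starts. This balance turns with the scaling: with TMM factors 70 were higher and 28 lower, and with totals without mitochondrial genes 52 and 48. The median log2 ratio of all these genes was -0.14 from the DN2a and -0.04 from the DN2b start, and 0.07 and 0.07 with TMM. With each reverse-transcription well left out, 18 to 43 genes were higher. Among members with at most 20% mitochondrial UMIs 448 genes could be compared, 16 of them higher and 18 lower. They took in 2 of the 29 and 9 of the 68 genes called in all members, of which 2 and 7 kept the call, so most calls could not be checked in this way. With Gzmb not counted, 7 of 17 higher and 14 of 25 lower calls that could be compared were kept. With at least 3 marker genes 1 of 5 and 3 of 7 were kept. In members of 400 to 800 UMIs it was 4 of 6 and 9 of 17, and with TMM factors 29 of 29 and 28 of 68.

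Cd7 was among the genes furthest above WT, with log2 ratios of 1.93 (1.16 to 2.81) from the DN2a and 1.61 (1.04 to 2.23) from the DN2b start. Cd28, the costimulatory receptor, stood at 1.27 (0.01 to 2.81) from the DN2a and 1.44 (0.40 to 2.65) from the DN2b start, and Themis at 0.68 (-0.01 to 1.43) from the DN2a and 2.32 (1.00 to 4.00) from the DN2b start. Ptms, Myl12b, Dynll1, Itm2c and Ms4a4b were the other 5 named on this side, with 2 to 16 UMIs in WT members of a start. Furthest below WT was Mid1, a microtubule-associated ubiquitin ligase on the X chromosome, at -3.31 (-4.64 to -2.17) from the DN2a and -4.33 (-6.28 to -2.87) from the DN2b start; it held 30 UMIs in WT and 8 in ΔTE members from the DN1 start as well. The DN1 start did not follow in every gene: its ratios were -0.65 (-1.74 to 0.45) for Cd7, -0.98 (-2.46 to 0.47) for Themis and 0.70 (-0.44 to 1.98) for Zfp704, against the direction of the later starts but within counting error. Male and female mice were combined, and their shares in each genotype were not analysed here. Rnf220 stood at -1.32 (-1.68 to -0.95) from the DN2a and -2.05 (-2.64 to -1.48) from the DN2b start. Zfp704, Bcl11b, Xylt1, Maco1, Gtpbp1 and Spag9 made up the rest of the 8 lowest. Among members with at most 20% mitochondrial UMIs the ratios from the DN2a and DN2b starts were 2.41 (1.57 to 3.37) and 1.82 (0.98 to 2.76) for Cd7, -2.98 (-4.71 to -1.59) and -3.83 (-9.23 to -1.11) for Mid1 and -1.55 (-2.05 to -1.06) and -2.66 (-4.38 to -1.28) for Rnf220. Those of Cd28 were 1.95 (0.38 to 3.95) and 1.46 (-0.09 to 3.29) and those of Themis 0.88 (0.10 to 1.71) and 1.98 (0.09 to 4.44). From the DN2b start Zfp704 and Myl12b changed sign under this limit, at 0.17 (-1.49 to 1.87) and -0.44 (-2.24 to 1.28).

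Marker genes of the rule are a description here too. Among DN2b-start members, the level of Il2rb was 92.8 CPM for WT and 344 CPM for ΔTE, Klrd1 at 65.0 and 179 CPM, and Tnfrsf9 at 167 and 655 CPM. Rora ran the other way, at 1494 and 1069 CPM.

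Members crossed other sets of cells unevenly. A UMI of Zbtb16 without Bcl11b was in 31.2% of members and 10.9% of other cells (23.1 and 7.76% after thinning to 300 UMIs), and of Bcl11b without Zbtb16 in 7.98% of members and 13.2% of other cells (5.89 and 9.67% after thinning to 300 UMIs). Both genes together were in 3.72% of members and 1.68% of other cells (1.18 and 0.688% after thinning to 300 UMIs), most of all in WT DN2b members (10.1 against 2.50%); after thinning members were higher in 3 libraries and lower in 3. Zbtb16 without Bcl11b was more frequent in members in all 6 libraries. Bcl11b without Zbtb16 was less frequent in members of the 4 DN2a and DN2b libraries but not of the DN1 libraries, where it was in 10.0 against 8.64% of WT cells (4.48 and 6.06% thinned) and 6.09 against 3.12% of ΔTE cells (3.54 and 2.29% thinned). Any UMI of Gzma was in 23.9% of members and 30.1% of other cells (14.6 and 21.6% after thinning to 300 UMIs). At least 3 were in 5.09% of members and 4.05% of other cells (1.60 and 1.39% after thinning to 300 UMIs), with members higher in 3 libraries and lower in 3 before thinning, so no direction is read from this share. Fcer1g with Itga2b was in 5 members. At least 3 of 12 mitosis genes were in 27.4% of members and 15.9% of other cells (8.24 and 5.72% after thinning to 300 UMIs). Before thinning this share was higher in members in all 6 libraries, and after it in all but WT DN2a (7.89 against 8.06%). Thinning left out 127 members and 8310 other cells.

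Summed lists of other cell types were also read in members. The stromal list of 11 genes, none of them in the rule, summed to 185, 53.1 and 56.0 CPM in WT and 92.4, 202 and 119 CPM in ΔTE members; Igfbp7 was its most abundant gene with 60 UMIs, and Lum and Postn were at 0. In other cells it summed to 61.3, 68.5 and 60.7 CPM in WT and 53.7, 68.9 and 63.9 CPM in ΔTE, so that members were higher in 4 of 6 libraries, all but WT DN2a and WT DN2b. Over all libraries it stood at 128 CPM (104 to 156) in members and 63.4 CPM (60.3 to 66.6) in other cells, and at 61.5, 74.0, 111, 116 and 206 CPM in cells with 0, 1, 2, 3 and 4 or more marker genes. The part of stromal RNA in the results was not tested. The myeloid list of 14 summed to 308, 42.5 and 37.4 CPM in WT and 139, 79.2 and 47.5 CPM in ΔTE members, against 401, 92.5 and 42.3 CPM in WT and 304, 91.4 and 39.3 CPM in ΔTE other cells, so that it was lower in members in all libraries but ΔTE DN2b. The members' myeloid sums rested on 15, 4 and 4 UMIs in WT and 12, 18 and 10 in ΔTE. Among the genes of this list Ctsg led with 14 UMIs, and Csf1r, Csf3r, Elane, Ngp, S100a8 and S100a9 were at 0. Genes of B cells summed to at most 41.1 CPM in any library, led by Cd79b with 7 UMIs, with Cd79a, Igll1, Ms4a1, Pax5 and Vpreb1 among those at 0.

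Of 8 genes of mast cells and basophils, Fcer1a, Gata2, Hdc and Prss34 were at 0 in members, while Cpa3, which early lymphoid progenitors also express, led with 436 UMIs. Cpa3 averaged 595 against 561 CPM in members and other cells and was not called, and Mcpt8 averaged 35.7 against 13.0 CPM (log2 fold change 1.49). Genes of antigen presentation summed to 246, 106 and 0 CPM in WT and 115, 30.8 and 9.49 CPM in ΔTE members, led by H2-Aa with 12 UMIs, and were highest in the DN1 start of each genotype. Other cells stood at 54.3, 20.8 and 5.98 CPM in WT and 56.8, 23.5 and 7.70 CPM in ΔTE. By point value they were below the members in every library but WT DN2b. The members' sums rested on only 12, 10 and 0 UMIs in WT and 10, 7 and 2 in ΔTE, and no test was made. Genes of red cells and megakaryocytes summed to 82.2, 85.0 and 9.34 CPM in WT and 115, 39.6 and 9.49 CPM in ΔTE, led by Itga2b with 29 UMIs, with Klf1 and Pf4 among those at 0. Other cells stood at 109.7, 55.9 and 5.06 CPM in WT and 151, 106 and 21.6 CPM in ΔTE. By point value they were above the members in 4 libraries and below them in WT DN2a and WT DN2b. These members' sums rested on 4, 8 and 1 UMIs in WT and 10, 9 and 2 in ΔTE.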

How the data were processed

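Single-cell libraries of 6 groups, 1 each, were analysed. The authors deposited a count of UMIs per gene and barcode, not normalized and not filtered by cell. The 6 libraries held 14419647, 14555100, 8321964, 11926879, 12998440 and 8007395 UMIs in all barcodes. The submitters' processing notes name the mm9 build, and the aligner is not given in the sources used here. The files hold Ensembl identifiers and no coordinates, so positions were taken by identifier from GENCODE M21 on GRCm38, where 28008 of 28048 genes matched. The strand used in counting is not given in the sources used here: genes annotated on the opposite strand overlap several named genes, among them Gata3, Maf, Tox, Cd7, Cd160, Notch1, Runx1 and Mid1, and their UMIs cannot be told apart.

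UMIs were summed over the cells of a set and library and tested with edgeR 4.0.16 (glmQLFit and glmQLFTest, TMM, filterByExpr, library as a block, Benjamini-Hochberg over all genes tested; standard errors derived from the F statistic), in R 4.3.3. The 20 genes of the rule, and the CD3 genes for CD3 cells, were left out of fits and totals. CPM scales a gene's UMIs to a common total of the remaining UMIs, and that of a rule gene to a total of all UMIs. DESeq2 1.42.0 was an alternative. Shares have Clopper-Pearson intervals, and ratios exact intervals of 1 count given the sum of both; genotype calls and medians over genes used ratios with 0.5 UMIs added to each count (scipy 1.17.1, Python 3.11.15). The random seed of thinning was 1. The edgeR step was tested on simulated data.

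Genes named were the 20 of the rule; Bcl11b, Zbtb16, Gata3, Cd160 and Fcer1g; in each of 18 lists up to 4 called genes with the largest fold change and up to 2 measured uncalled ones, the most abundant first; in each edgeR comparison the 12 highest and 12 lowest called genes with at least 50 CPM in the higher set; and the 8 highest and 8 lowest genes between genotypes. Other genes of a list are named where its calls are given; some genes that this rule names are not reported here. The members and lists were chosen with earlier results of these data known.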

Additional observations from a re-analysis of the deposited data

How the results depend on the processing

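The share of members was higher in ΔTE than in WT in each start under every alternative tried, and 41 of the log2 ratios stayed within the interval of the main value. With at least 3 marker genes they were 2.26, 2.91 and 2.12 from the DN1, DN2a and DN2b starts, without Rora, Id2 and Ikzf3 2.28 and 2.30 from the DN2a and DN2b starts, with at most 20% mitochondrial UMIs 1.17 from the DN2b start, and without Gzmb 2.45 from the DN2a start. Between members and other cells, DESeq2 called 127 genes lower, a fit without the library block 175 lower, cells of 400 to 800 UMIs 278 higher and 222 lower, and members with at least 3 marker genes 281 higher; with each library left out in turn, 190 to 367 were lower. Between members and CD3 cells, DESeq2 called 101 higher and 104 lower, all genes with a UMI 280 higher, and cells of 400 to 800 UMIs 72 and 64 of 723 tested; with each library left out, 114 to 181 were higher. Between members with and without an NK gene, DESeq2 and edgeR in cells of 400 to 800 UMIs called 0 genes in either direction (30 and 43 at an unadjusted p under 0.05), all genes with a UMI 0 lower, and the split without Gzmb 13 higher and 11 lower; with each library left out, 0 to 9 were higher and 0 to 6 lower. Between genotypes, 70 genes were higher and 28 lower with TMM factors, 14 and 23 with at least 3 marker genes, 52 higher without mitochondrial genes in the total, 21 lower in members of 400 to 800 UMIs, 44 lower with Gzmb not counted, and 16 and 18 among members with at most 20% mitochondrial UMIs; with each well left out, 18 to 43 were higher. Of the folds of named genes between cell sets, 2742 kept their direction and side of the threshold, 203 lost the call, 21 gained it and 5 turned. Turned were Fn1 against all other filtered cells, which include stroma (-2.32), Cd163l1 (0.035), Eif5a (-0.10), Sox5 (0.38) and Wwox (-0.12) between members with and without an NK gene other than Gzmb, and, among genotype ratios whose interval in all members excluded 0, Zbtb16 from the DN2a start with at least 3 marker genes (-0.042) and Zfp704 from the DN2b start with at most 20% mitochondrial UMIs, at 0.17 (-1.49 to 1.87). Ratios whose interval included 0 changed sign in other cases, among them Gtpbp1 from the DN2a start with at least 3 marker genes and without Gzmb, Gata3 from the DN2a start with at least 3 marker genes, Myl12b from the DN2b start and Zbtb16 and Rnf220 from the DN1 start with at most 20% mitochondrial UMIs. Fewer genes tested, or fewer cells, go with the narrower sets of cells; the other causes were not tested. The settings without Gzmb, those without mitochondrial genes, and the 20% limit for genotype ratios were chosen after seeing the data. At a median of 504.5 UMIs per member, a marker gene without a UMI can still be expressed, and free RNA can give a UMI to a cell that does not express the gene.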
